A study of Mus musculus with 12 samples.

Results

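The comparison set livers of mice with a hepatocyte-specific knockout of Sirt2, which the genotype label calls a Sirt2 liver KO (KO), against wild-type livers (WT), averaged over the 2 plasmid cocktails the mice had been given. All 12 libraries of the series entered it, 6 on the KO side and 6 on the WT side. Libraries were assigned by the genotype in their titles, and the plasmid was a term of the model, so that the genotype difference is the mean of the differences within each plasmid. Testing was restricted to genes reaching 10 normalized reads in 3 or more of the 12 libraries, which left 13871 of 47263 genes.

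The 4 groups, each of 3 libraries, were KO GFP, KO MET/CAT, WT GFP and WT MET/CAT. GFP is a green fluorescent protein, and MET/CAT is a pair of oncogenes, the receptor tyrosine kinase MET and a beta-catenin lacking its N-terminal part. Sleeping Beauty transposase, which inserts the plasmid cargo into the genome, was part of the described MET/CAT cocktail of 50 µg in all. Both cocktails were delivered by hydrodynamic tail-vein injection to mice 6 to 8 weeks old, and livers were collected 8 weeks later. The labels give mice matched for age and sex and call the sequenced material whole liver cells. The composition of the GFP cocktail, the strain, the sex, the targeted allele and the promoter behind the hepatocyte deletion are not described in the labels. The genotype field of the labels gives the same genotypes as the titles. The treatment field goes against the titles of the KO GFP and WT MET/CAT libraries, naming MET/CAT for every KO library and GFP for every WT library. If that field were right, genotype and plasmid could not be told apart in any of the values below. The labels do not state that each replicate is a separate mouse, and p-values therefore measure the spread between these libraries, which may be technical. Replicates of a group differed by more than counting error alone gives, with a median chi-square per gene of 4.36 to 14.43 over 12 pairs of libraries, which does not tell separate mice from separate preparations.

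SIRT2 is an NAD-dependent protein deacetylase found mainly in the cytoplasm. It is best known for removing acetyl groups from alpha-tubulin, and it also acts on histones and on transcription factors such as FOXO proteins and the p65 subunit of NF-kB. Most of the leading genes with lower values in KO livers, below Sirt2 itself, were interferon-induced. Type I interferons bind the receptor chains IFNAR1 and IFNAR2, the kinases JAK1 and TYK2 phosphorylate transcription factors of the STAT family, and these join IRF9 to form the complex ISGF3. ISGF3 binds the interferon-stimulated response element in promoters of antiviral genes. In liver, hepatocytes and Kupffer cells, the resident macrophages, both carry the receptor and a basal level of this program.

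The promoters of the leading interferon-induced genes are shown because they hold matches to the core of the element that ISGF3 recognizes. Promoter stretches were taken from RefSeq on GRCm38.p6 and read in the direction of transcription, ending before the start site. They lie at chr4:156200851-156200921 on the minus strand for Isg15, chr19:34583349-34583460 on the plus strand for Ifit3, chr19:34640755-34640838 on the plus strand for Ifit1 and chr7:104353350-104353402 on the minus strand for Trim12c. Capitals mark matches to the core GAAANNGAA on either strand, which overlap each other in Isg15 and Ifit1.
Isg15: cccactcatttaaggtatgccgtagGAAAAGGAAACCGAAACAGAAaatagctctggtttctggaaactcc
Ifit3: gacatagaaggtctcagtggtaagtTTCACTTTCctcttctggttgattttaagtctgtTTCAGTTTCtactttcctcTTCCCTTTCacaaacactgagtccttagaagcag
Ifit1: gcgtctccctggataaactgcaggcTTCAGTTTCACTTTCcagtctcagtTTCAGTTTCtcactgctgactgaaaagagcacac
Trim12c: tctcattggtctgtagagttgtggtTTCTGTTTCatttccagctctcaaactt

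Counting the base just before the start site as -1, the matches began at -78, -72 and -66 in Isg15, at -155, -121 and -102 in Ifit3, at -109, -103 and -84 in Ifit1, and at -28 in Trim12c. Leading genes here are the 10 in each direction with the smallest p among genes averaging at least 50 normalized reads in the genotype where they are higher, leaving out predicted genes. Of the 10 leading lower genes, 8 had a promoter of 250 bases before to 50 after the start in the RefSeq table, and 4 of these 8 promoters held the core. Of the 10 leading higher genes, 9 had promoters there, and 0 of their 11 promoters held it. Over the 10521 tested genes with a promoter there, those of chromosome 18 left out, 997 of 13486 promoters (7.39%) held the core. Among the lists used below, it was present in 19 of 38 promoters of type I interferon response genes, in 10 of 12 promoters of interferon gamma GTPases and in 5 of 19 promoters of MHC class I and immunoproteasome genes. The STAT motif TTCNNNGAA was present in 6 of 12 promoters of the GTPases, 6 of 38 of the type I list and 943 of the same 13486 promoters (6.99%). A match is a description of these letters only.

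The libraries held 18208879 to 24352961 reads, as recovered from the deposited values. The first principal component held 21.96% of the variance, and KO GFP replicate 3 stood apart on it at -89, against -33.2 to 52.8 for the other 11 libraries. In that library the level of genes relative to the mean of all libraries had a Spearman correlation of 0.291 with transcript length across genes, against -0.243 to 0.137 in the others, and the KO over WT differences themselves had one of 0.128 with length across 13840 genes. Several list medians that moved without this library are given with and without it. Hepatocyte markers, led by secreted plasma proteins and summed over 20 genes, reached 2809000 to 3559000 normalized reads in KO and 3021000 to 4486000 in WT libraries, so that the markers of the labelled tissue were abundant in every library.

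Few genes passed the test. By limma with Benjamini-Hochberg adjustment, 2 of 13871 genes were called at an adjusted p under 0.05 (0.0144%), Sirt2 lower and Hist1h2bq higher in KO livers. Called means called by this limma test wherever no other tool or setting is named. At an unadjusted p under 0.05, 996 genes stood out (7.18%), 394 higher (2.84%) and 602 lower (4.34%). The 6 KO values lay wholly outside the 6 WT values for 53 genes (0.382%), 17 higher (0.123%) and 36 lower (0.26%). Values were lower in KO livers for 7844 genes (56.5%), and the median log2 fold change over all genes was -0.05, or 0.07 when libraries were scaled to equal totals.

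Sirt2 fell in KO livers. Sirt2 (ENSMUSG00000015149.14) lies on the plus strand at chr7:28766735-28788661 of GRCm38. The 3 KO GFP libraries had 233, 182.5 and 126 normalized reads and the 3 KO MET/CAT libraries 248, 234 and 201. The WT GFP libraries had 824, 924 and 726 and the WT MET/CAT libraries 1068, 943 and 908. Every KO library was below every WT library. The means were 204 ± 45.4 in KO and 899 ± 116 in WT livers (SD, n = 6 each), a log2 fold change of -2.16 (SE 0.16, adjusted p = 2.08e-05), with -2.22 in GFP and -2.09 in MET/CAT livers. In summed reads, KO libraries had 1257 and WT libraries 5261. Corrected by the deposited scaling factors of the libraries, and not by their read totals, the ratio was 0.227 (95% Poisson interval 0.213 to 0.241, counting error only). Sirt2 was called under each of the 26 alternatives, with log2 fold changes of -2.24 to -2.04. Sirt2 shares 778 bases with Nfkbib, which encodes an inhibitor of NF-kB on the opposite strand, and as the strand setting is not given, reads there cannot be told apart. Nfkbib had 246.8 to 927 normalized reads in KO and 455.5 to 1304 in WT livers (-0.34, adjusted p = 0.775). The source of the remaining reads in KO livers was not tested.

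Of the other sirtuins, a family of NAD-dependent enzymes, none was called. Sirt6, a nuclear sirtuin of chromatin, had 21.7 to 58.4 normalized reads in KO and 34.9 to 102 in WT livers (log2 fold change -0.73, adjusted p = 0.655). Sirt1, a mainly nuclear deacetylase, had 76.85 to 182 in KO and 52.1 to 154 in WT livers (0.30, adjusted p = 0.819). Both genes' groups overlapped. Tubulin genes and enzymes of tubulin acetylation, whose protein product is the best-known SIRT2 substrate, gave lower values for 12 of 16 members with a median of -0.16, and 0 of 16 were called. That average joined -0.37 in GFP and 0.20 in MET/CAT livers, with opposite signs in 10 of 16 members, and it was -0.04 with libraries scaled to equal totals. Of 24 FOXO target genes, 19 had higher and 5 lower values (median 0.16, or 0.07 without KO GFP replicate 3, 0 called), led by Igfbp1, a secreted binder of insulin-like growth factors, at 400.5 to 19620 normalized reads in KO and 122 to 1689 in WT livers (1.90, adjusted p = 0.643). Of 22 NF-kB target genes, 17 had lower values (median -0.40, 0 called), with a median of -0.77 without KO MET/CAT replicate 1, and of -0.18 when WT MET/CAT replicate 2 was left out. Of 26 genes of NAD synthesis and consumption, 16 had lower values (median -0.07, or 0.05 with libraries scaled to equal totals, 0 called). The call for Sirt2 is thus the single one among these 5 lists.

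**Figure D1:**
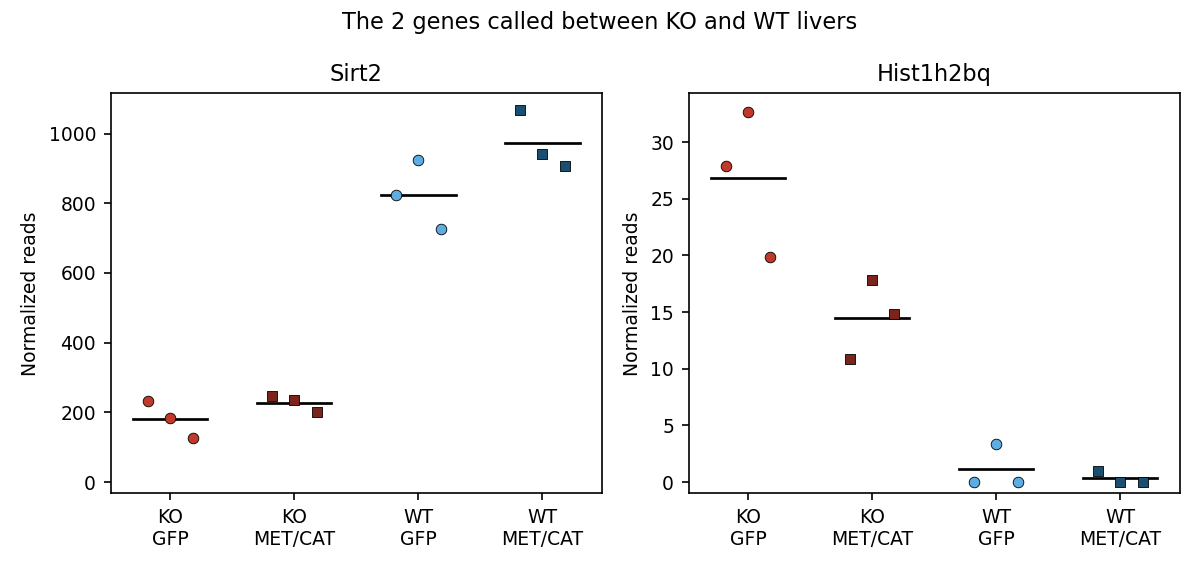
Normalized reads of Sirt2 (left) and Hist1h2bq (right) in each library, with KO GFP, KO MET/CAT, WT GFP and WT MET/CAT from left to right; points are libraries and bars the means of 3. For Sirt2 the 6 KO libraries lie at 126 to 248 and the 6 WT libraries at 726 to 1068; for Hist1h2bq the KO libraries lie at 10.8 to 32.7 and the WT libraries at 0 to 3.40.

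Hist1h2bq was the single gene called higher in KO livers. It encodes a histone H2B in the histone cluster of chromosome 13 (ENSMUSG00000069307.6, minus strand, chr13:21806612-21810197). The 3 KO GFP libraries had 27.9, 32.7 and 19.9 normalized reads and the 3 KO MET/CAT libraries 10.8, 17.8 and 14.9. In WT livers, WT GFP replicate 2 had 3.40 and WT MET/CAT replicate 1 had 1 read worth 0.997, and the other 4 libraries had no read. The gene was thus low everywhere, and present in every KO library. The log2 fold change was 3.83 (SE 0.52, adjusted p = 0.0237), with 4.06 in GFP and 3.60 in MET/CAT livers. In reads, KO libraries had 133 and WT libraries 4, a ratio of 31.6 when corrected by the same scaling factors (95% Poisson interval 12 to 118, counting error only). The direction held in each of 25 alternatives, and the call was lost in 13 of them. Without 1 library its adjusted p lay between 0.012 and 0.193: it stayed under 0.05 without WT GFP replicate 2, WT MET/CAT replicate 1 or WT MET/CAT replicate 3, and was lost without any of the other 9. DESeq2 on recovered reads gave an adjusted p of 1.84e-05, edgeR 0.0525.

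Hist1h2br, on the opposite strand of the same cluster, is a near-copy: 1961 of the 2015 windows of 50 bases in Hist1h2bq transcripts (97.3%) also occur in Hist1h2br transcripts. How reads that fit both were counted is not given, so the split between the 2 genes is uncertain. Hist1h2br stayed below the filter on low values, with 29 reads in KO libraries, 2 to 7 in each of the 6, and 0 reads in WT libraries. It was chosen after its values were seen. Of other histone genes on chromosome 13, the H4 gene Hist1h4i had 30.7 to 112 normalized reads in KO and 31.6 to 92.7 in WT livers (0.09, adjusted p = 0.956), and Hist1h2bc, another H2B gene, had 1113 to 2588 in KO and 1963 to 3399 in WT livers (-0.48, adjusted p = 0.65). Of 14 measured clustered histone genes on a list without Hist1h2bq, 10 had lower values and 0 were called (median -0.16). Among all genes of the table, Hist1h2br and A230072E10Rik (16 reads) had reads in every KO and no WT library, and Dlx6os1 (8 reads) had reads in every WT and no KO library.

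Below these 2 calls, interferon-induced genes headed the genes with lower values in KO livers. Isg15, Ifit3, Zbp1 and Ifit1 were 4 of the 10 leading lower genes, Trim12c, of a family with interferon-induced members, was another, and Sirt2 itself was the first. None of these genes but Sirt2 passed the adjusted threshold. Isg15, a ubiquitin-like protein that is attached to other proteins after interferon, had a lowest, median and highest value of 300.1, 325.5 and 422.5 normalized reads in KO livers, against 486, 758 and 937 in WT livers. The groups did not overlap. The means were 339.8 ± 44.5 in KO and 747 ± 175 in WT livers (SD, n = 6 each), a log2 fold change of -1.11 (SE 0.17, adjusted p = 0.076), with -1.22 in GFP and -0.99 in MET/CAT livers.

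Ifit3, an antiviral protein that works with other IFIT proteins on foreign RNA, had 156, 232 and 271 in KO livers, against 350.2, 533 and 844 in WT livers. Again no KO library reached a WT library. The log2 fold change was -1.27 (SE 0.21, adjusted p = 0.076), with -1.17 in GFP and -1.38 in MET/CAT livers. Of its 1696 transcript windows of 50 bases, 869 also occur in its copy Ifit3b (51.2%), whose own difference was -1.19 (adjusted p = 0.569). Ifit1, which binds RNA lacking the host cap mark, had 178, 304 and 502 in KO livers, against 394, 599 and 2116 in WT livers. KO MET/CAT replicate 1, at 502, was above the 2 lowest WT libraries, and the difference was -1.27 (SE 0.30, adjusted p = 0.56).

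Zbp1, a sensor of Z-form nucleic acids that can start necroptosis, had 85.8, 134 and 177 in KO livers, against 204, 305 and 424 in WT livers (log2 fold change -1.13, SE 0.22, adjusted p = 0.321). Its groups did not overlap. Trim12c, a TRIM protein of mouse, had 159, 299 and 428.5 in KO livers, against 441, 603 and 1264 in WT livers (-1.31, SE 0.24, adjusted p = 0.244). The highest KO value, in KO GFP replicate 3, was just under the lowest WT value, in WT GFP replicate 1.

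Some settings moved these genes past the threshold. Isg15 and Ifit3 passed with an adjusted p of 0.00683 and 0.0197 without WT MET/CAT replicate 3, the lowest WT library for both, and over the 12 libraries left out in turn their adjusted p ranged from 0.00683 to 0.317 and from 0.0197 to 0.35. Trim12c passed without KO GFP replicate 3 (adjusted p = 0.00383), the single removal of the 12 in which it did, and its adjusted p ranged up to 0.743. DESeq2 on recovered reads, which called 20 genes in all, called Isg15 (adjusted p = 1.36e-05), Ifit3 (4.43e-05), Zbp1 (0.00667), Trim12c (0.0117) and Ifit1 (0.0485). On the same reads edgeR called Sirt2 alone and none of these genes. Limma with library quality weights, which called 10 genes, called Trim12c (adjusted p = 0.00194), Ifit3 (0.00468), Isg15 (0.014) and Zbp1 (0.0389). Isg15, Ifit3, Zbp1, Trim12c and Ifit1 kept their negative sign in each of 26 alternatives. Over these alternatives their adjusted p reached 0.429 for Isg15 and Ifit3, 0.747 for Trim12c, 0.818 for Zbp1 and 0.848 for Ifit1.

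**Figure D2:**
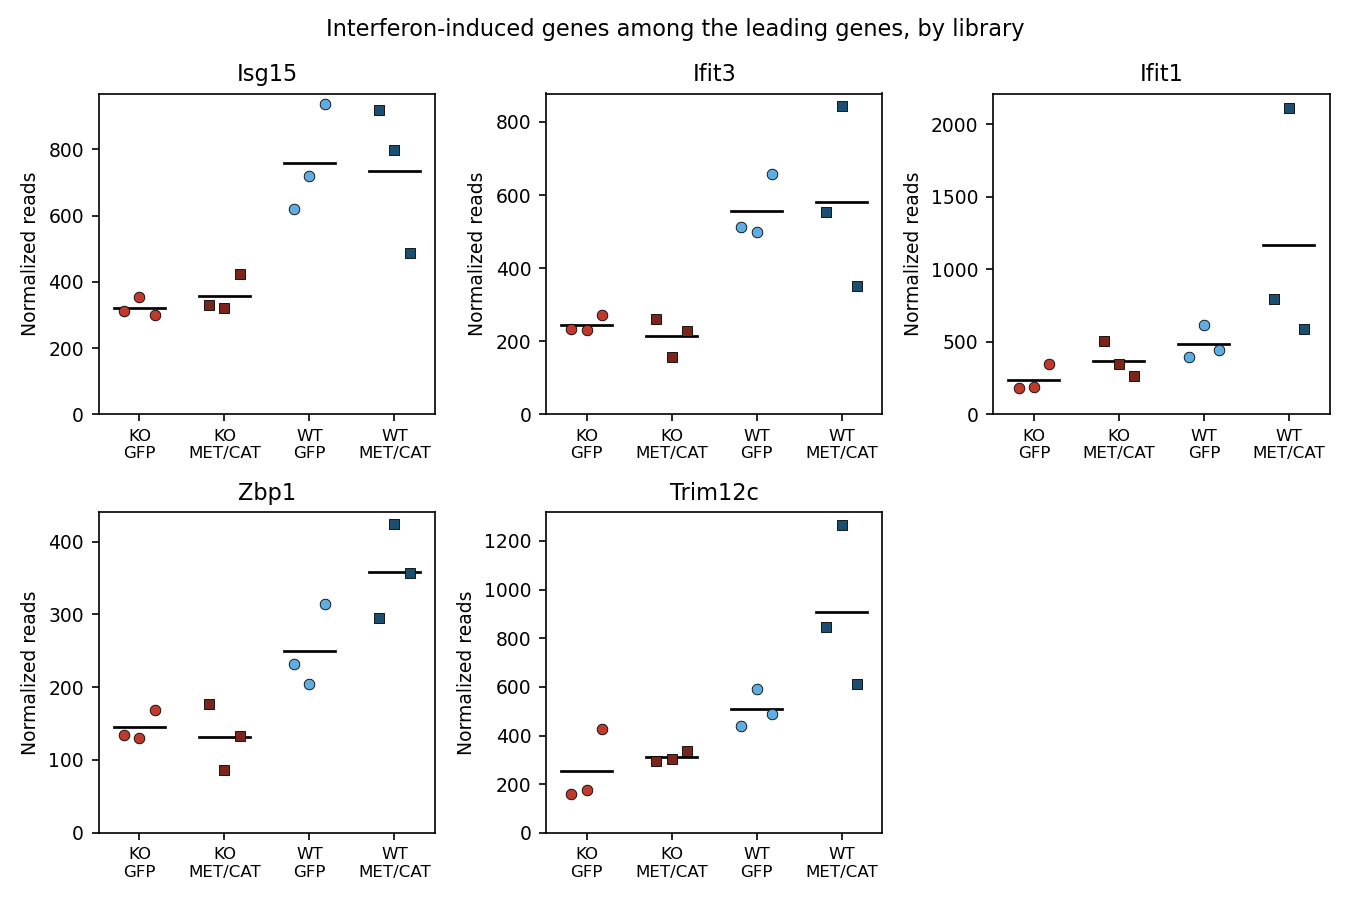
Normalized reads of 5 interferon-related genes in each library, with KO GFP, KO MET/CAT, WT GFP and WT MET/CAT from left to right in each panel; points are libraries and bars the means of 3. All KO libraries lie below all WT libraries for Isg15, Ifit3, Zbp1 and Trim12c, while for Ifit1 the highest KO library (502) lies above the lowest WT library (394).

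The type I interferon response list as a whole gave lower values. Of its 47 genes 45 were measured, and 44 of these 45 had a lower mean in KO livers, beside 56.5% of all genes; 20 had an unadjusted p under 0.05 with a lower value and 0 with a higher one, beside 4.34% and 2.84% of all genes. None was called by limma, while DESeq2 on recovered reads called 5 of them lower, Isg15, Ifit3, Zbp1, Ifit1 and Ifit3b (adjusted p = 0.0485 for Ifit3b, a copy of Ifit3), and limma with library quality weights 3. With edgeR on recovered reads none of the list was called. The median log2 fold change of its members was -0.63, with -0.54 in GFP and -0.63 in MET/CAT livers, against -0.05 over all genes. In 31 of 45 genes the value was lower within both plasmids, beside 23.9% of all genes, and in 0 it was higher within both, beside 18.5%.

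The level of the list, taken as the mean log2 deviation of its members from their means over 12 libraries, separated the genotypes. It was -0.31, -0.34 and -0.28 in KO GFP and -0.28, -0.47 and -0.15 in KO MET/CAT libraries, against 0.18, 0.18 and 0.36 in WT GFP and 0.11, 0.74 and 0.28 in WT MET/CAT libraries. No KO library reached a WT library, and of the 49 lists examined 2 showed this, the other being the sirtuins, which contain Sirt2. Leaving out each library in turn gave list medians of -0.64 to -0.55, with 41 to 44 members lower. The other settings gave medians of -0.63 to -0.51.

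Members besides the leading genes had lower values in KO livers too, with 1 exception. Xaf1, an interferon-induced inhibitor of XIAP, had 64.4 to 91.85 normalized reads in KO and 108 to 209 in WT livers (-0.81, adjusted p = 0.59), with no overlap. Lgals3bp, a secreted glycoprotein that binds galectin-3, had 748 to 1034 in KO and 1133 to 1287 in WT livers (-0.48, adjusted p = 0.575), also with no overlap. The groups did not overlap for 6 of 45 members, among them Isg15, Ifit3, Zbp1, Lgals3bp and Xaf1, and all 6 were lower in KO livers, beside 0.26% of all genes. Trim25, the ubiquitin ligase that activates RIG-I, was the single member with a higher value (0.14, adjusted p = 0.854). Mx2 (-0.03), Ifi27 (-0.03) and Bst2 (-0.08), all antiviral or interferon-induced, were chosen after their values were seen as those nearest 0 on average, and each was lower in GFP and higher in MET/CAT livers.

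**Figure D3:**
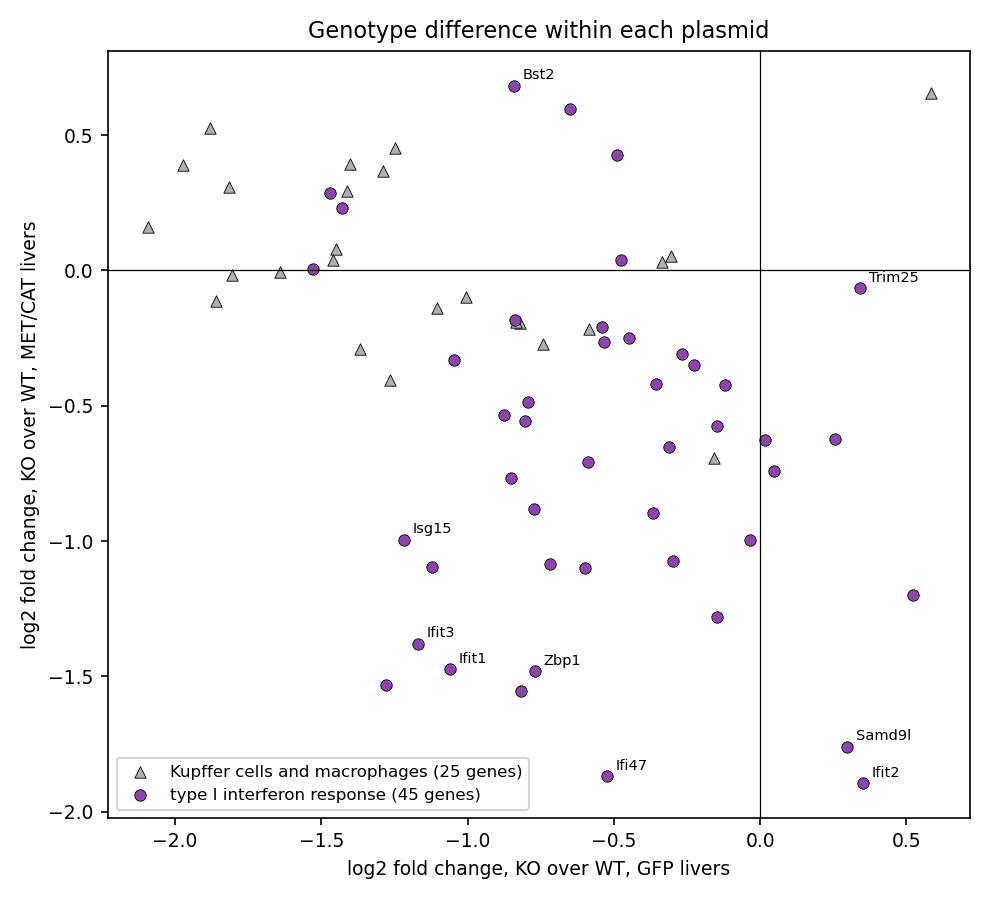
Log2 fold change of KO over WT in GFP livers (horizontal) and in MET/CAT livers (vertical) for 45 type I interferon response genes (purple circles) and 25 Kupffer cell and macrophage markers (grey triangles). Of the interferon genes 31 lie in the lower left quadrant, lower in KO livers with either plasmid; the Kupffer markers lie to the left, with a median of -1.29 in GFP livers, and around 0 in MET/CAT livers, with a median of 0.03.

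Components upstream of the response had list medians nearer 0 when averaged over plasmids. They were examined with lists chosen after values had been seen, so that their counts are description. Of 7 interferon genes, Ifnb1, Ifna2, Ifna4, Ifng, Ifnl2, Ifnl3 and Ifnk, none reached the filter on low values. Among 11 measured receptors and signal transducers 10 had lower values, with a median of -0.22 (-0.01 in GFP and -0.37 in MET/CAT livers): the receptor chains Ifnar1 and Ifnar2 differed by -0.09 and -0.12, the kinases Jak1 and Tyk2 by -0.04 and -0.26, and the ISGF3 partners Stat2 and Irf9 by -0.29 and -0.22. None of the 11 was called.

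Of 15 measured nucleic acid sensors and adaptors, 13 had lower values, with a median of -0.35. It was -0.11 in GFP livers and -0.62 in MET/CAT livers, there close to the -0.63 of the type I interferon list. The RNA sensors Dhx58, Ifih1 and Ddx58, themselves interferon-induced, differed by -0.90, -0.35 and -0.18, and the adaptor Mavs by 0.21. Irf7, the factor that amplifies interferon transcription, had 857 to 1624 normalized reads in KO and 1005 to 3255 in WT livers (-0.51, adjusted p = 0.657). Of 7 feedback inhibitors, a list that includes Isg15 itself and Trim21, 5 had lower values, with a median of -0.175. Usp18, which removes ISG15 from proteins and blocks IFNAR2, differed by -0.65 (adjusted p = 0.59), and Socs3, an inhibitor of JAK kinases, by 0.40 (adjusted p = 0.864). The TRIM genes of chromosome 7 near Trim12c, most of them interferon-induced in mouse, had lower values in 8 of 8 measured members on average over plasmids, with a median of -1.14. Among the 8, Trim30b lay near the floor, at 0 to 5.31 normalized reads in KO and 0 to 15 in WT livers. This list was drawn up around Trim12c and counts that leading gene, so that its count and median give no separate support. The median was -0.41 in GFP and -1.77 in MET/CAT livers, and in GFP livers Trim21 (0.12), Trim30d (0.24) and Trim34a (0.70) had higher values. Trim5 differed by -1.95 (adjusted p = 0.59) and Trim12a by -1.22 (adjusted p = 0.59). Copies in this cluster may share reads, and 6.38% of the Trim12c windows occur in Trim12a.

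The interferon gamma GTPases, GBP and IRG proteins that attack vacuoles of intracellular microbes, had lower values in 18 of 20 measured members, 7 of them at an unadjusted p under 0.05, and 0 were called. Ifi47 belongs to this list and to the type I list. Gbp8 had 3.18 to 14.5 normalized reads in KO and 15.6 to 79.1 in WT livers (-1.40, adjusted p = 0.643) and was the single member with no overlap. Igtp had 466 to 793 in KO and 667 to 1341 in WT livers (-0.64, adjusted p = 0.643). The list median was -0.72, but -0.11 in GFP and -1.20 in MET/CAT livers. WT MET/CAT replicate 2 had a list level of 2.09, and the median was -0.42 without that library.

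MHC class I genes, their peptide transporters and the immunoproteasome had lower values in 20 of 21 members, 7 at an unadjusted p under 0.05, and 0 were called (median -0.34). Tap1, a subunit of the transporter that loads peptides, had 341 to 512 normalized reads in KO and 515 to 1124 in WT livers (-0.68, adjusted p = 0.59), with no overlap. Psmb9, a catalytic subunit of the immunoproteasome, had 297 to 675 in KO and 421 to 1071 in WT livers (-0.57, adjusted p = 0.643). The list median was -0.62 in GFP and -0.10 in MET/CAT livers. Without KO GFP replicate 3, whose list level of -0.67 was the lowest, the median over both plasmids was -0.29. By limma, no test of a difference between plasmids passed for any gene (0 of 13871 at an adjusted p under 0.05, 0%; 2153 at an unadjusted p under 0.05, 15.5%), while DESeq2 on recovered reads called 169 genes and limma with single libraries left out 0 to 4.

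Markers of several immune cell types also had lower values in KO livers, in the GFP groups. Of 25 Kupffer cell and macrophage markers 24 had lower values, 5 at an unadjusted p under 0.05, and 0 were called. Slc40a1, an iron exporter, was the single one with a higher value (0.62, adjusted p = 0.59). The median was -0.56, with -1.29 in GFP and 0.03 in MET/CAT livers, and their summed level was 5810 to 15900 normalized reads in KO and 11850 to 17710 in WT libraries. Clec4f, a lectin of Kupffer cells, had 355 to 2038 in KO and 1294 to 3309 in WT livers (-0.99, adjusted p = 0.643). In whole liver, fewer cells of a type and less RNA per cell cannot be told apart.

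In MET/CAT livers the type I interferon list had a median of -0.63 and the Kupffer markers one of 0.03. Without KO GFP replicate 3 the medians were -0.59 for the interferon list and -0.29 for the Kupffer markers. T and NK cell markers had lower values in 13 of 15 members (median -0.50, with -1.22 in GFP and 0.21 in MET/CAT livers) and summed levels of 129 to 433.5 in KO and 235 to 499 in WT libraries, and Cd3e, which defines T cells, was at 0 in 2 KO libraries and 1 WT library. B and plasma cell markers had a median of -0.51, dendritic cell markers -0.64 and MHC class II genes -0.46, each below 0 in GFP and above 0 in MET/CAT livers. Without KO GFP replicate 3 these medians were -0.19 for T and NK cells, -0.32 for B and plasma cells, -0.27 for dendritic cells and -0.14 for MHC class II genes. Under the settings that kept every library, the dendritic cell median ranged from -0.72 to -0.01. Erythroid genes had lower values in 6 of 7 members (median -0.86, with -1.10 in GFP and -0.18 in MET/CAT livers), summed at 5532 to 24270 in KO and 9743 to 37080 in WT libraries. Stellate cell markers had a median of 0.08. The averaged medians of endothelial (-0.07), cholangiocyte (0.09) and neutrophil (0.01) markers joined opposite differences: -0.35 in GFP and 0.18 in MET/CAT livers for endothelial, -0.36 and 0.86 for cholangiocyte and -0.69 and 0.39 for neutrophil markers. All 9 measured cholangiocyte markers had opposite signs with the 2 plasmids. The part of any of these cells in the interferon values was not tested.

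**Figure D4:**
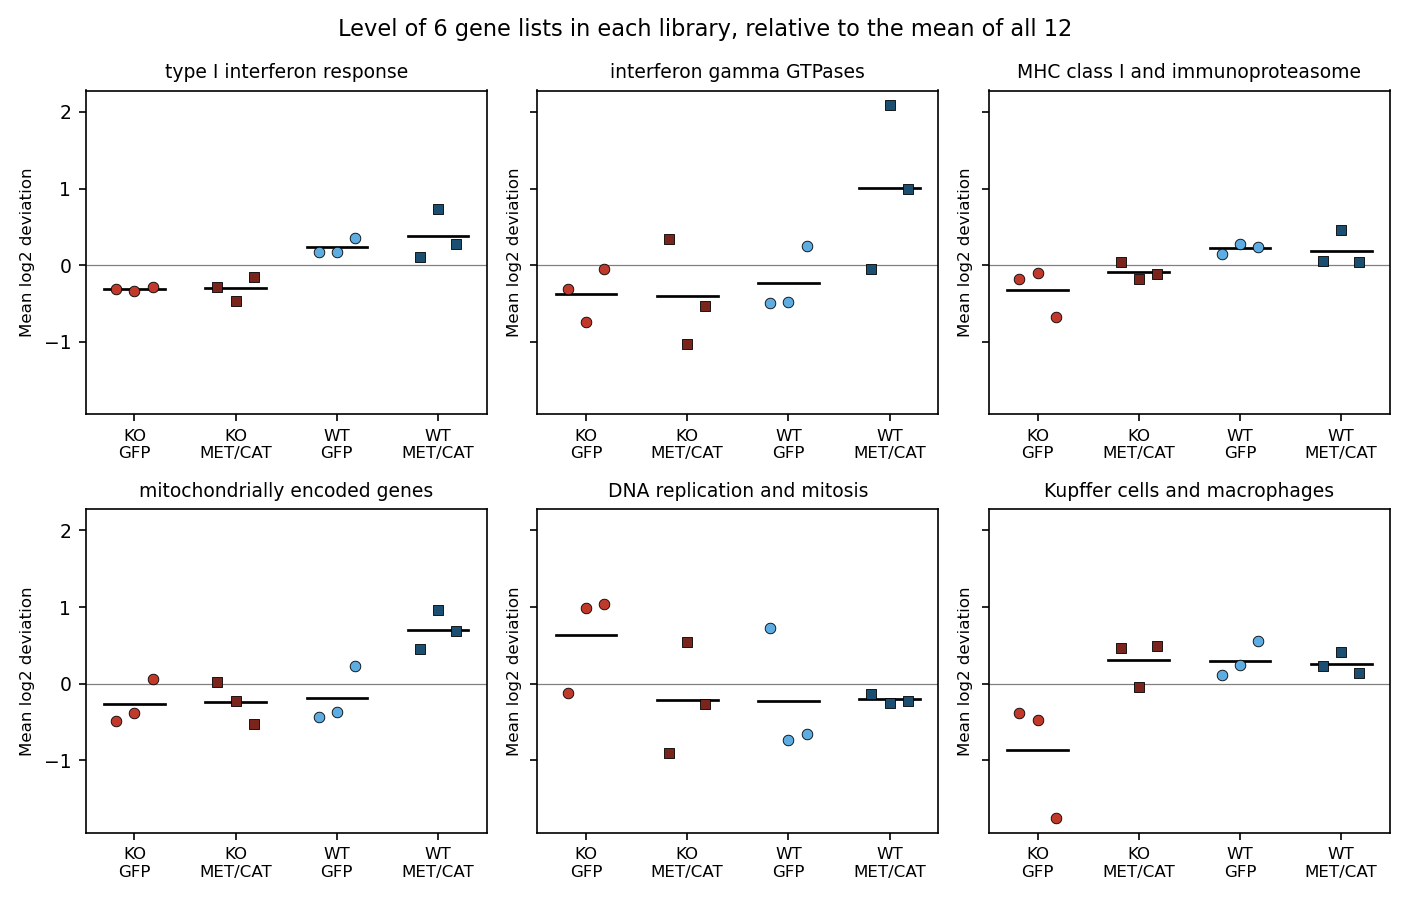
Level of 6 gene lists in each library, as the mean log2 deviation of the members from their means over 12 libraries; points are libraries and bars the means of 3, with KO GFP, KO MET/CAT, WT GFP and WT MET/CAT from left to right. For the type I interferon response the KO libraries lie at -0.47 to -0.15 and the WT libraries at 0.11 to 0.74; for Kupffer markers the KO GFP libraries lie below the other 3 groups, KO GFP replicate 3 lowest at -1.75.

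A further 3 of the 10 leading lower genes belong to no interferon list, and none was called by limma. With library quality weights limma called Mmd2 (adjusted p = 0.0389) and Eci3 (0.0458) lower, and DESeq2 on recovered reads called Klhdc8a lower (adjusted p = 0.0414). Eci3, an enoyl-CoA isomerase of fatty acid oxidation, had 2.88, 12.6 and 50.6 normalized reads in KO livers, against 34.5, 68.2 and 82.3 in WT livers (-2.07, SE 0.48, adjusted p = 0.56). KO MET/CAT replicate 1 was the single KO library within the WT range. Mmd2, a membrane protein of the progestin and adipoQ receptor family, had 124, 146 and 275 in KO livers, against 198, 292 and 540.5 in WT livers (-0.90, adjusted p = 0.56). Klhdc8a, a kelch repeat protein, had 22.6, 66.0 and 117 in KO livers, against 55.8, 145 and 254 in WT livers (-1.25, adjusted p = 0.56). For both, the groups overlapped.

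None of the 10 leading higher genes was called. Kat2b, the histone acetyltransferase PCAF, had 899, 1035 and 1478 normalized reads in KO livers, against 547, 747 and 861 in WT livers, with no overlap. The means were 1099 ± 210.0 in KO and 706 ± 120 in WT livers (SD, n = 6 each), a log2 fold change of 0.64 (SE 0.13, adjusted p = 0.393), with 0.65 in GFP and 0.62 in MET/CAT livers. Cbfb, the partner subunit of RUNX transcription factors, had 211 to 305 in KO and 156 to 170.1 in WT livers (0.59, adjusted p = 0.569), and Samd1, which binds unmethylated CpG islands, had 179.6 to 371 in KO and 91.8 to 161 in WT livers (0.81, adjusted p = 0.569). For neither did the groups overlap.

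The other 7 overlapped between genotypes. Pim3, a serine and threonine kinase of growth signalling, had 1087 to 3554 in KO and 354 to 1356 in WT livers (1.40, adjusted p = 0.575). Syde2, a GTPase-activating protein, differed by 1.08 and Mms22l, a factor of replication-coupled recombination, by 1.04. Pgap1, which remodels GPI anchors, differed by 0.74, Ivns1abp, a kelch protein, by 0.58, Hlf, a clock-controlled transcription factor, by 0.55 and Gbe1, the glycogen branching enzyme, by 0.53, with adjusted p of 0.401 to 0.587. DESeq2 on recovered reads called Pgap1, Kat2b, Syde2, Cbfb, Mms22l and Samd1, with adjusted p of 0.00394 to 0.0485.

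Of 42 measured genes of DNA replication and mitosis, 33 had higher values in KO livers, 8 at an unadjusted p under 0.05 against 1 lower, and 0 were called; 23 were higher within both plasmids, beside 18.5% of all genes. The median was 0.48, with 0.90 in GFP and 0.19 in MET/CAT livers. It was 0.33 without KO GFP replicate 3, whose list level was the highest at 1.04. Rrm2, a subunit of ribonucleotide reductase, had 142 to 469 normalized reads in KO and 94.9 to 180.4 in WT livers (1.02, adjusted p = 0.59), and Pcna, the replication clamp, had 408 to 867 in KO and 348 to 565 in WT livers (0.46, adjusted p = 0.643). Rrm2 was called by DESeq2 on recovered reads (adjusted p = 0.0433). Library levels overlapped, at -0.90 to 1.04 in KO and -0.74 to 0.72 in WT libraries.

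Immediate early genes, the first to respond to growth factors and stress, had higher values in 16 of 21 members with a median of 0.58 (-0.09 in GFP and 1.02 in MET/CAT livers), 0 called. KO MET/CAT replicate 1 alone had a list level of 2.29, against -0.62 to 0.46 in the other 5 KO libraries and -0.62 to 0.04 in WT libraries. Without it the median was 0.16. Circadian clock genes had higher values in 16 of 21 members (median 0.35, or 0.20 without WT MET/CAT replicate 1, 0 called). Per2, a repressor of the clock, had 86.8 to 394.5 in KO and 38.9 to 192.5 in WT livers (0.79, adjusted p = 0.643), while Npas2, an activator of opposite phase, had 0 to 36.6 in KO and 5.67 to 102 in WT livers (-2.07, adjusted p = 0.59). The hour at which livers were taken is not given in the labels.

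Sex-biased liver genes, which follow the secretion pattern of growth hormone, split by direction. Male-biased genes had higher values in 20 of 25 members (median 0.29, or 0.13 without KO MET/CAT replicate 2) and female-biased genes lower values in 18 of 24 (median -0.41), and 0 of either were called. Cyp4a12a, a male-biased fatty acid hydroxylase, had 23.4 to 673 in KO and 6.33 to 173.5 in WT livers (2.07, adjusted p = 0.643), and Sult2a2, a female-biased sulfotransferase, had 8.37 to 2320 in KO and 594 to 9354 in WT livers (-2.57, adjusted p = 0.673). The female-biased median lay between -0.72 and -0.08 with single libraries left out, nearest 0 without KO MET/CAT replicate 2, whose list level was the lowest at -1.60. On recovered reads it was 0.03 with edgeR and 0.02 with DESeq2, so that the female-biased list has no stable direction. The sex is not named in the labels.

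Among metabolic lists, amino acid catabolism and the urea cycle had lower values in 38 of 45 members (median -0.22, 0 called), with 6 at an unadjusted p under 0.05 and 0 higher. The list median was -0.25 in GFP and -0.10 in MET/CAT livers. It was -0.10 with libraries scaled to equal totals and -0.15 without KO GFP replicate 3. Cbs, which starts transsulfuration, had 6023 to 13880 normalized reads in KO and 9769 to 18400 in WT livers (-0.55, adjusted p = 0.59), and Agxt, which detoxifies glyoxylate, had 6832 to 12560 in KO and 8060 to 15630 in WT livers (-0.62, adjusted p = 0.643). Cholesterol synthesis genes had lower values in 23 of 25 members (median -0.24), 1 at an unadjusted p under 0.05. Their median was -0.01 in GFP and -0.46 in MET/CAT livers, -0.12 with libraries scaled to equal totals and -0.17 without KO MET/CAT replicate 1. Gluconeogenesis and glycogen (median 0.08), fatty acid oxidation (0.06), lipogenesis (-0.03), glycolysis (-0.10), bile acid synthesis and transport (-0.06) and drug-metabolizing cytochrome P450 genes (-0.07) had averaged medians near that of all genes. The bile acid average joined 0.21 in GFP and -0.20 in MET/CAT livers, with opposite signs in 15 of 24 members.

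Mitochondrially encoded genes had lower values in 13 of 15 members, 7 at an unadjusted p under 0.05, and 0 were called (median -0.53, with -0.21 in GFP and -0.91 in MET/CAT livers). mt-Co2, a subunit of cytochrome c oxidase, had 475.5 to 907 in KO and 604 to 2342 in WT livers (-0.78, adjusted p = 0.59). The share of reads on the mitochondrial genome was 2.11 to 3.72% in KO and 1.76 to 5.83% in WT libraries, and the 2 highest shares were WT MET/CAT replicates 2 and 3. Nuclear-encoded subunits of oxidative phosphorylation (median -0.17) and ribosomal protein genes (-0.16) had lower values in 65 of 75 and 73 of 76 members. Those averages joined opposite differences: -0.61 in GFP and 0.35 in MET/CAT livers for oxidative phosphorylation, and -0.61 and 0.28 for ribosomal proteins. Without KO GFP replicate 3, which had the lowest level of both lists, the averaged medians were 0.05 and 0.03.

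Among the remaining lists, which cover stress responses and liver zonation among others, 0 members were called. Medians were 0.02 for NRF2 targets, -0.03 for p53 targets, 0.13 for heat shock and cytosolic chaperones, -0.07 for endoplasmic reticulum chaperones and -0.12 for the integrated stress response. Pericentral genes and beta-catenin targets had a median of -0.15, periportal genes -0.14, hepatocyte transcription factors 0.03, oncofetal genes -0.13, the growth hormone and IGF axis 0.10, autophagy and lysosome genes 0.00, acute phase genes -0.17 and actin genes of non-parenchymal cells -0.23. Several of these change sign between scalings, so that no direction is given for them. The integrated stress response median joined -0.35 in GFP and 0.38 in MET/CAT livers, and that of the actin genes -0.60 and 0.06. Without KO GFP replicate 3 the averaged medians were 0.01 for the integrated stress response and -0.05 for the actin genes.

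**Figure D5:**
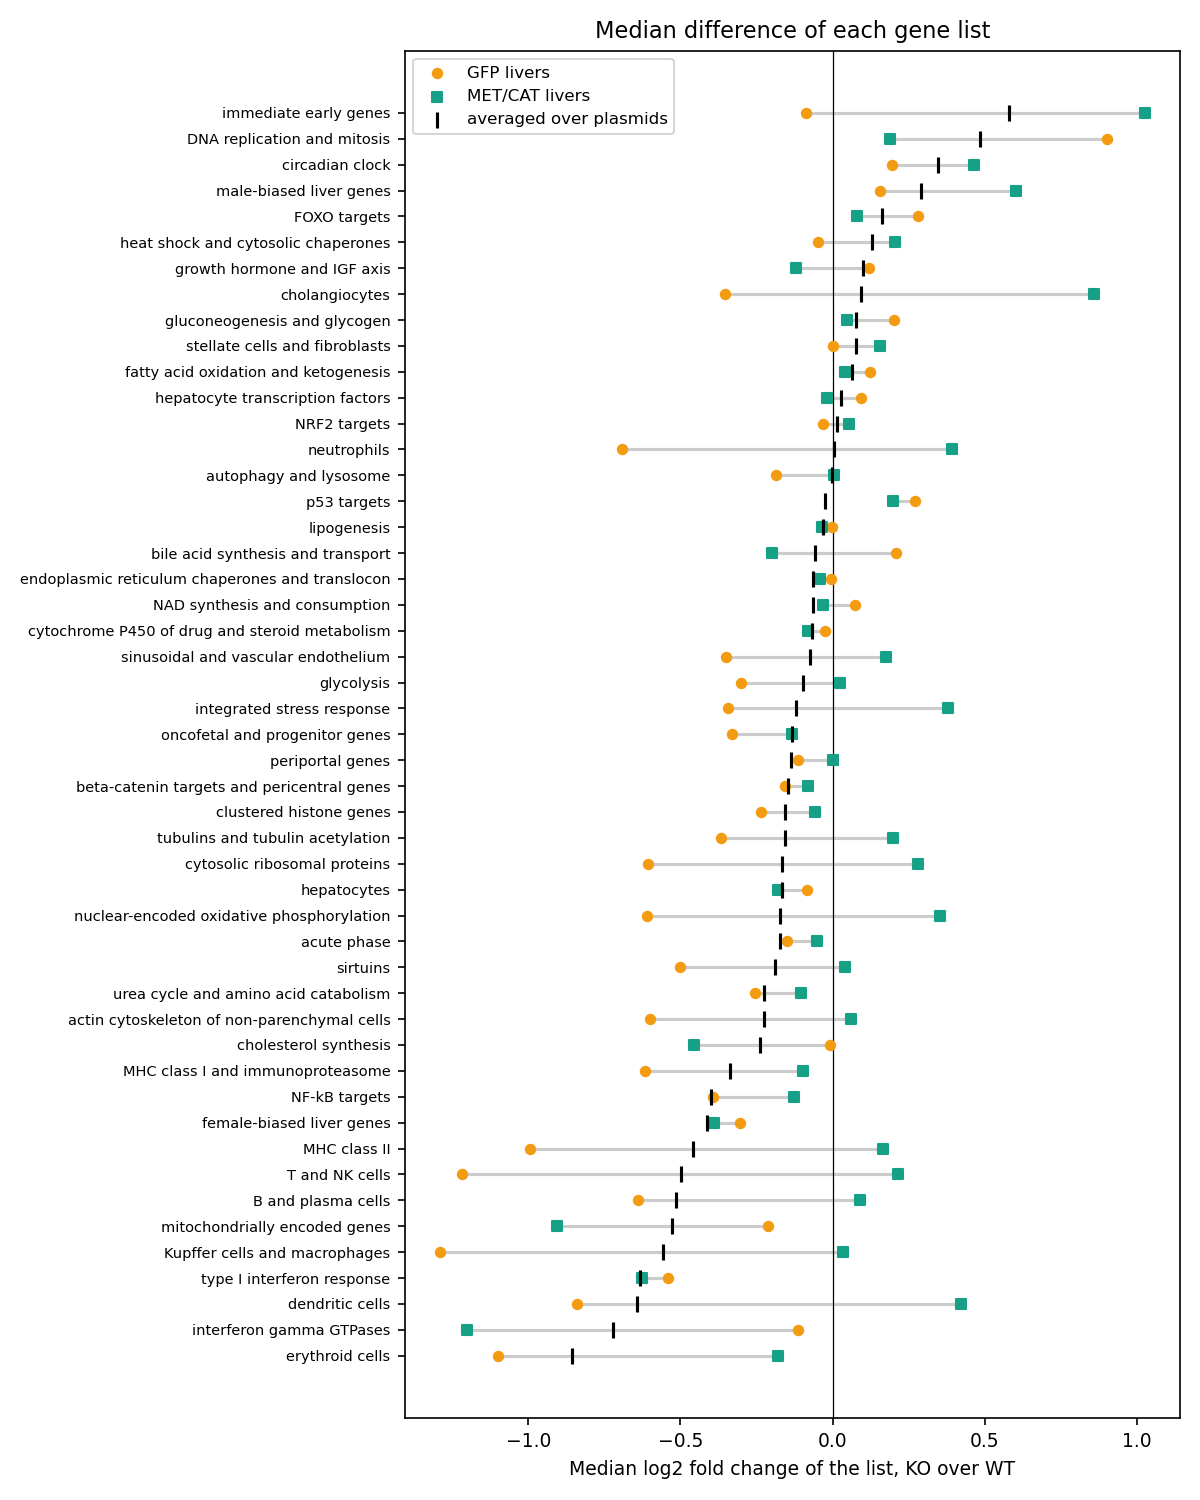
Median log2 fold change of KO over WT for each of 49 gene lists, ordered from the highest averaged median at the top to the lowest at the bottom; orange circles are GFP livers, green squares MET/CAT livers and black ticks the average over plasmids. The type I interferon response has medians of -0.54 in GFP and -0.63 in MET/CAT livers, Kupffer markers of -1.29 and 0.03, and ribosomal proteins of -0.61 and 0.28.

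Over all genes, the differences within the 2 plasmids had the same sign for 5893 genes (42.5%). Within GFP livers 1 gene was called (0.00721%) and within MET/CAT livers 1 gene (0.00721%), Sirt2 in both. Of 251 tested genes within 10 Mb of Sirt2 on chromosome 7, Sirt2 was the 1 called and the 1 without overlap, and 16 had an unadjusted p under 0.05 (6.37%), beside 7.18% of all genes. Chromosome 7 as a whole had 98 of 1065 (9.2%).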

How the data were processed

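RNA of mouse liver was sequenced in 12 libraries, and the reads were aligned with HISAT2 2.0.4 and counted with HTSeq 0.11.2 on GRCm38, per the submitters' processing notes. The authors deposited a normalized signal per gene, read counts scaled by a factor for each library. For the normalization tool, the strand setting and the library kit, nothing is stated in the labels or notes. Within a tolerance of 0.001 reads, 100% of values were whole multiples of the library's value of 1 read (0.753 to 1.204), and whole reads were recovered from these steps. A value of 3 reads is 2.26 to 3.61 normalized reads, the floor of a library.

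Genes reaching 10 normalized reads in 3 or more libraries were tested with limma 3.58.1 (R 4.3.3) on log2(value + 1), with a mean-variance trend, plasmid and genotype as terms, and Benjamini-Hochberg adjustment over all 13871 genes. Every fold change is on this log2(value + 1) scale, which understates changes of low genes. A fit of 4 group means gave the values within each plasmid and their difference. edgeR 4.0.16 and DESeq2 1.42.0 on recovered reads, other pseudocounts (0.5 and 5), filters, scalings, library weights, replicate blocks and each library left out were tried as alternatives, and the code was tested on simulated data. Positions come from GENCODE M21 and promoters from RefSeq on GRCm38.p6. Figures were drawn with matplotlib 3.10.9.

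The text names the called genes, the 10 leading genes in each direction, and up to 4 members with the smallest p of each of 49 lists. One leading gene is not reported here. Other members were named after their values were seen. The comparison, members and lists were chosen with earlier results of these data known, and a list is described by counts and medians with no test. Intervals and floors cover counting error only.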

Additional observations from a re-analysis of the deposited data

Results flagged for a closer look

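Among 140 groups of 6 libraries, made of 21 leading genes and 49 lists in both genotypes, 7 had 1 library whose gap to the nearest other, divided by the whole range, passed Dixon's 95% critical value. Chance flags about 1 in 20 groups whose values come from a single population, and 7 of 140 is no more than that. Each group here joined libraries of both plasmids, so that this rate is only a rough guide. The flags below are description.

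KO GFP replicate 3 accounted for 3 of the 7. It had the lowest level of the sirtuins, at -0.70 against -0.23 to -0.06 in the other KO libraries (ratio 0.737), of MHC class I and immunoproteasome genes, at -0.67 against -0.18 to 0.04 (ratio 0.682), and of nuclear-encoded oxidative phosphorylation, at -1.19 against -0.10 to 0.47 (ratio 0.652). Levels are mean log2 deviations from the mean over all libraries. KO MET/CAT replicate 1 had the highest level of immediate early genes, at 2.29 (ratio 0.631).

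Ifit3 was lowest in KO MET/CAT replicate 2, with a log2(value + 1) of 7.29 against 7.83 to 8.09 in the other KO libraries (ratio 0.680). Samd1 was lowest in WT GFP replicate 3, at 6.54 against 7.04 to 7.34 in the other WT libraries (ratio 0.630). B and plasma cell markers were lowest in WT MET/CAT replicate 3, at -0.61 against 0.25 to 0.68 (ratio 0.668).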

How the results depend on the processing

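The number of genes called higher, 1 as reported, was 0 with a pseudocount of 0.5, 0 with a filter of at least 50 in at least 6 libraries, 0 with edgeR and 9 with DESeq2 on recovered reads, and 0 to 1 with single libraries left out. The number called lower, 1 as reported, was 11 with DESeq2, 9 with library quality weights and 1 to 4 with single libraries left out, 2 without KO GFP replicate 3 and 4 without WT MET/CAT replicate 3. No gene's genotype difference was called as differing between plasmids by limma or edgeR, while DESeq2 called 169 and leaving out single libraries gave 0 to 4. With a replicate block, of the 6 same-numbered pairs or of the replicate number, 0 genes were called higher and 1 lower. Whether the numbers pair the libraries is not stated in the labels, and so few correlations cannot settle it. Deviations of same-numbered KO and WT libraries correlated at -0.195 to 0.28, highest for GFP replicates 2 (0.28) and 3 (0.264). With the block of pairs the limma adjusted p of Hist1h2bq was 0.263. Type I interferon genes with a lower value numbered 38 to 44 over 26 alternatives, the 38 under the stricter filter, which tests fewer genes. Of 1791 values of leading genes and list medians under alternatives, 1741 kept their side of the threshold or stayed within the spread. Of the others, 21 passed the threshold newly, 13 lost it, all for Hist1h2bq, and 16 medians moved. Among the leading genes 0 values reversed sign. A median that changed sign within the spread counts as kept, as for nuclear-encoded oxidative phosphorylation (-0.17, or 0.05 without KO GFP replicate 3). Depth limits genes near the floor, such as Hist1h2bq. The cause of these changes was not tested.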
